A study of Mus musculus with 4 samples.

Results

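The genes described here are 87 homeobox and paired-box developmental regulators of the mouse. They are the protein-coding genes of GENCODE release M21 among the 55421 gene identifiers of the count table whose symbol is that of a Hox gene of clusters A to D or of a numbered Pax, Lhx, Nkx, Dlx, Irx or Six-class gene, with Pax6 left out. Hox genes made up 39 of them, Nkx genes 14, Lhx genes 8, Pax genes 8, and the Dlx, Irx and Six-class genes 6 each. They were measured in E14 mouse embryonic stem cells (mESCs), a line of 129/Ola background taken from the blastocyst, grown in serum with LIF on gelatin. Cells labelled as knockouts of the microRNA cluster miR-290-295 (KO, n = 2 libraries) were compared with cells labelled as wild type (WT, n = 2 libraries). The labels name no other agent, time point or allele, call the pairs of libraries biological duplicates, and do not say whether the KO libraries came from separate clones. Libraries were made from polyadenylated RNA with a QuantSeq kit that reads the 3′ end of each transcript, so a count stands for a transcript end and was not divided by gene length.

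Most of these genes encode transcription factors that bind DNA through a homeodomain and fix position or organ identity in the embryo. In embryonic stem cells, genes of these families are known as classic targets of the Polycomb repressive complexes, which mark histones over CpG-rich promoters and hold the genes nearly silent until a lineage needs them. Hox genes lie in clusters along the chromosome in the order in which they are used along the body axis. Pax proteins carry a paired domain, and some of them, among them PAX1 and PAX9, lack a homeodomain. No histone mark was measured in these libraries, so the Polycomb part of the description is background and was not tested.

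The deleted cluster lies on mouse chromosome 7 and makes microRNAs that are abundant in embryonic stem cells, and a microRNA finds its messenger RNAs mainly through its seed, bases 2 to 8. Mature 3p arms are shown because they name the letters later looked for in the members. They are from RefSeq on GRCm38.p6, read 5′ to 3′, with the seed in capitals. For miR-292a only the 5p arm was found there, so the list is not complete.
mmu-miR-291a-3p: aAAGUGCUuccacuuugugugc
mmu-miR-294-3p: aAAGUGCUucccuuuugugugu
mmu-miR-295-3p: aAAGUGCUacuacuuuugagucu
mmu-miR-291b-3p: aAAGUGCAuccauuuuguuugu
mmu-miR-290a-3p: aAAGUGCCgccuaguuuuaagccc
mmu-miR-293-3p: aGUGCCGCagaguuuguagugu
The first 3 share 1 seed, the next 2 differ from it only in the last seed base, and miR-293-3p has a shifted seed.

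Library totals ran from 9925557 to 12726123 counts. Counts over the microRNA genes of the cluster, summed, were 4 and 0 in the KO libraries and 88 and 39 in the WT libraries, and the 4 counts in KO library 1 all lay on Mir290b, which is annotated on the opposite strand. Markers of embryonic stem cell identity summed to 4297 and 4411 CPM (counts scaled by library size) in KO and to 4345 and 4708 CPM in WT, and 0 of the 12 rose and 2 (Klf4 and Utf1) fell, the Utf1 call being lost without KO library 1 (edgeR adjusted p = 0.0559). Fibroblast or feeder markers, a possible source of Hox transcripts, summed to 17.2 and 27.6 CPM in KO and 44.5 and 63.9 CPM in WT, with Col3a1, Postn, Prrx1, Dcn and Fap at 0 in all 4 libraries. Of the 4 tested, 0 rose and 3 fell (Col1a1, Col5a1 and Thy1), but 0 or 1 fell with any 1 library left out and 1 by DESeq2. Neural progenitor markers without Pax6 summed to 85.4 and 61.1 CPM in KO and 44.2 and 68.3 CPM in WT. Endoderm markers, of which 8 of 11 tested fell, summed to 94.8 and 75.5 against 314.5 and 291 CPM, and the number that fell was 5 without KO library 2. Trophoblast markers summed to 397.6 and 250.5 against 109.8 and 109.6 CPM, but without Tfap2c, the 1 that rose, to 17.9 and 19.7 against 18.7 and 22.7 CPM, and the 1 that fell, Ascl2, lost its call without either KO library. The part of these markers' cells in the results below was not tested.

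Of the 87 members, 69 had at least 1 count in some library and 18 had none. The genes without a count were Hoxa9, Hoxb1, Hoxb2, Hoxb3, Hoxb5, Hoxb6, Hoxb8, Hoxd10, Hoxd12, Dlx5, Dlx6, Irx6, Lhx8, Nkx1-1, Nkx2-1, Nkx2-6, Nkx3-2 and Pax4. A count of 0 over both libraries of a group allows a level of up to 0.123 CPM in KO and 0.136 CPM in WT, counting error alone. The share without a count was 20.7% of the members and 24.4% of all protein-coding genes. Mean levels over the 4 libraries were below 0.1 CPM for 34 members, from 0.1 to below 1 CPM for 40 and from 1 to below 10 CPM for 11. Six4 and Nkx6-2 alone had a mean of 10 CPM or more.

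Members with a count numbered 51 and 58 in the KO libraries and 54 and 48 in the WT libraries, so that the groups overlapped. With every library thinned to the smallest total they numbered 49 and 54 in KO and 49 and 48 in WT. The summed counts did not overlap. All members together held 2717 (exact Poisson 95% interval 2616 to 2821) and 2493 (2396 to 2593) counts in KO, and 1146 (1081 to 1214) and 1002 (941 to 1066) in WT. That is 213 ± 0.746 CPM in KO against 97.7 ± 2.85 CPM in WT (mean ± SD, n = 2 each), a ratio of 2.18. The small KO SD of the total hides larger family differences that ran in opposite directions. The Six-class sum was higher in KO library 1 (SD 15.9 CPM). The Nkx and Hox sums were higher in KO library 2 (SD 7.13 and 6.71 CPM).

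The higher sum lay in few genes. Of the difference in summed CPM, Six4 made up 58.9%, Nkx6-2 20.0% and Hoxb13 3.01%. Without Six4 alone the ratio was 1.90.

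**Figure D1:**
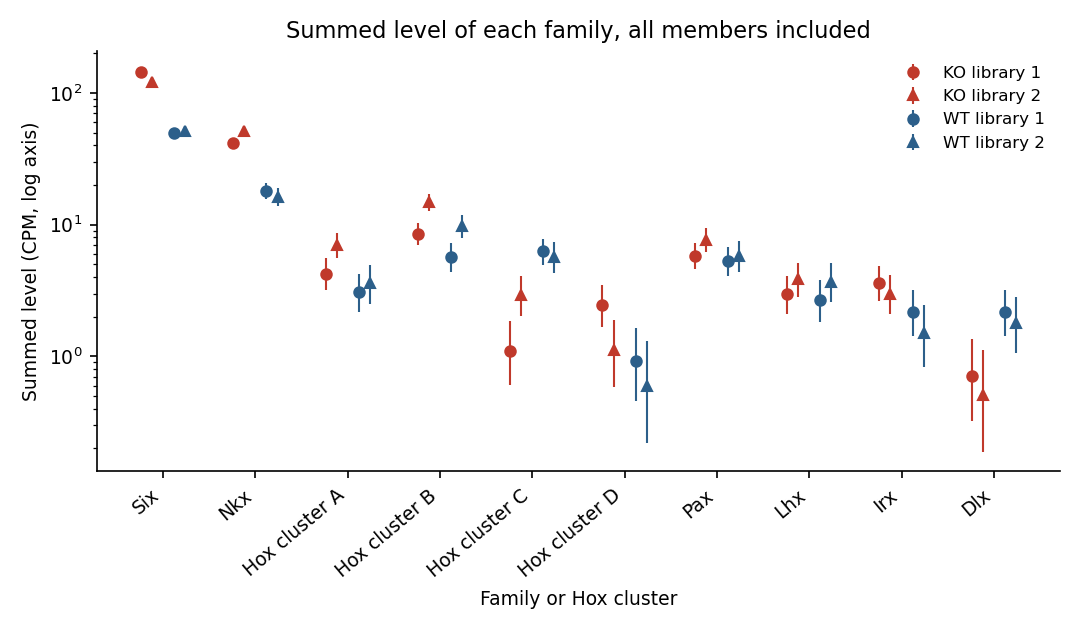
Summed level in CPM, on a log axis, of every family and Hox cluster in each of the 4 libraries, with members at 0 included and bars for the exact Poisson 95% interval of the summed count. Nkx, Six-class, Irx, Pax and Hox cluster A and D sums were higher in both KO libraries than in either WT library. Dlx and Hox cluster C sums were lower in both, and Hox cluster B and Lhx sums overlapped. For Irx, Pax, Dlx and Hox clusters A and D the sums lay apart, but intervals of KO and WT libraries overlapped.

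The fit across the whole table tested 14427 genes with enough counts, and 16 of the 87 members were among them, or 18.4% of the members against 57.0% of protein-coding genes. By edgeR's quasi-likelihood F test, with a p adjusted over all tested genes and a threshold of 0.05, 4 members rose in KO, among them Six4, Nkx6-2 and Hoxb13, and none fell. The 4 that rose were 25% of the tested members, beside 7.42% of all tested genes and 5.76% of tested protein-coding genes with a mean below 5 CPM. The 0 that fell stand beside 4.96% and 5.69% of the same sets. At an unadjusted p below 0.05 edgeR had 6 members higher and 2 lower. DESeq2, which tested all 69 members with a count, called 4 of them higher (5.80%) and 0 lower, beside 3.64% and 2.2% of the genes it tested. Without a filter on low counts edgeR called 7 of 69 higher (10.1%) and 2 lower (2.90%), beside 6.23% and 4.67% of all genes with a count. Over all members with a count the shares thus lay nearer the background than over the 16. The added genes were Hoxd4, Nkx2-5, Six6, Hoxc13 and Hoxc4, whose counts stand below.

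Which members could be tested depended in part on their direction. Of the 16, 9 reached the filter's limit of 0.836 CPM in all 4 libraries, 5 (Hoxb13, Irx2, Lhx2, Nkx2-5 and Nkx2-9) only through both KO libraries and 2 (Dlx3 and Hoxc13) only through both WT libraries. The median log2 fold change of the tested members, 0.96 beside -0.01 for all tested genes, is therefore a description of 16 genes and not of the 87. Both KO libraries lay above both WT libraries in CPM for 10 of the 16, or 62.5% beside 29.4% of all tested genes. Both KO libraries lay below both WT libraries for 2 members, beside 28.5% of all tested genes. Of the 53 members with a count but no test, which held at most 32 counts over the 4 libraries, KO lay above WT for 11 (20.8%) and below for 8 (15.1%), beside 13.1% and 18.2% of untested protein-coding genes with a count.

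**Figure D2:**
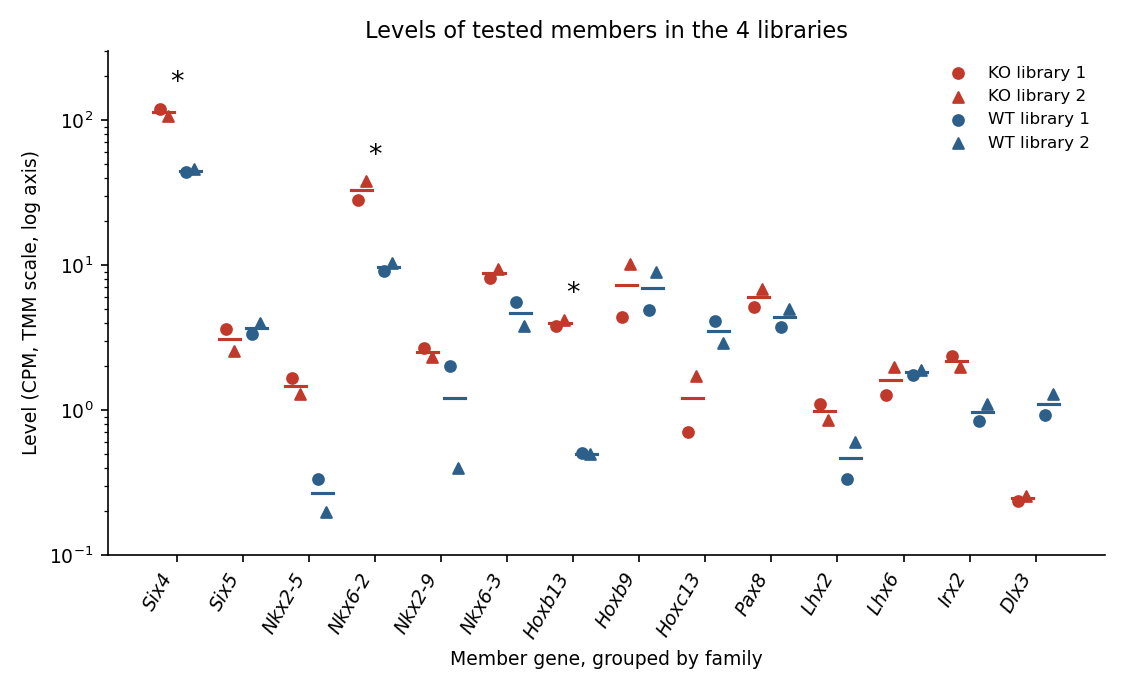
Level in CPM, on a log axis, of tested members in each of the 4 libraries, grouped by family, with a short line at each group mean and an asterisk over genes with an edgeR adjusted p below 0.05. Six4, Nkx6-2 and Hoxb13 carry the asterisk, and their KO points lie above their WT points.

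The Six-class genes carried the largest share of member counts and the largest rise in counts. SIX-class proteins are homeodomain factors that work with EYA coactivators in muscle, kidney, ear and sensory placodes. Six4 (ENSMUSG00000034460, chr12:73099609-73113456, minus strand, GRCm38), which acts in muscle and kidney development, held 1519 and 1243 counts in KO and 524 and 459 in WT. Both KO libraries were high, and the groups did not overlap. Its level was 113 ± 9.52 CPM in KO and 44.7 ± 1.36 CPM in WT, a log2 fold change of 1.34 (SE 0.17, edgeR adjusted p = 0.00167). Six4 alone held 50.9% of all member counts. In bulk RNA such a change cannot tell more cells with the transcript from more RNA per cell, here and for every gene below.

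Six6, a regulator of eye and pituitary development, held 20 and 4 counts in KO and 1 and 1 in WT and was too low for the test. Mnat1, a subunit of the CDK-activating kinase and the next gene upstream of Six4 at 10.3 kb, held 1000 and 987 counts in KO and 961 and 731 in WT, a log2 fold change of 0.09 (SE 0.16, edgeR adjusted p = 0.766).

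The Six6 counts carry an added limit. Six6 shares 192 exon bases with the gene 4930447C04Rik on the opposite strand, which held 777 and 445 counts in KO and 723 and 948 in WT, and the strand setting of the counting is not given in the sources used here. Of the other Six-class genes, Six5, which lies on chromosome 7, held 46 and 30 counts in KO and 40 and 40 in WT, a log2 fold change of -0.24 (SE 0.43, edgeR adjusted p = 0.768). The groups overlapped. Six2, a regulator of kidney nephron progenitors, held 6 counts in all, and Six3, a forebrain regulator, held 11. The family summed to 132 ± 15.9 CPM in KO and 50.2 ± 1.28 CPM in WT, a ratio of 2.62.

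Nkx genes pattern the ventral nervous system, heart and gut. Nkx6-2 (ENSMUSG00000041309, chr7:139579376-139582797, minus strand), a repressor that patterns ventral neural progenitors and acts in oligodendrocytes, held 357 and 441 counts in KO and 108 and 104 in WT. Both KO libraries were high, and the WT libraries lay close together. The level was 32.9 ± 6.75 CPM in KO and 9.68 ± 0.942 CPM in WT, a log2 fold change of 1.76 (SE 0.25, edgeR adjusted p = 0.00296). Nkx6-2 shares 246 exon bases with Inpp5a, an inositol phosphatase gene on the opposite strand, which held 260 and 286 counts in KO and 261 and 253 in WT. With no strand setting known, how reads over these bases were shared between both genes cannot be told.

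Nkx6-3, which acts in the stomach, held 104 and 110 counts in KO and 67 and 38 in WT, a log2 fold change of 0.90 (SE 0.35) with an edgeR adjusted p of 0.126. Its groups did not overlap, but the change did not pass the test. Nkx2-5, a cardiac regulator, held 21 and 15 counts in KO and 4 and 2 in WT, a log2 fold change of 2.39 (SE 0.69). It missed the threshold at an edgeR adjusted p of 0.0525, and the DESeq2 adjusted p was 0.3435. Nkx2-9, a gene of the ventral neural tube, held 34 and 27 counts in KO but 24 and 4 in WT. The spread between its WT libraries was wider than the gap between the group means in counts, and its log2 fold change of 1.02 (SE 0.67, edgeR adjusted p = 0.368) became 2.61 without WT library 1 and 0.31 without WT library 2.

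Other Nkx genes were low in every library. Nkx2-4 held 17 counts in all, Nkx2-2 and Nkx6-1, a pair of ventral neural tube and pancreatic islet factors, held 6 each, Nkx2-3 held 4 and Nkx1-2 held 1. The family summed to 46.6 ± 7.13 CPM in KO and 17.2 ± 1.34 CPM in WT. Without Nkx6-2 it summed to 171 and 164 counts in KO and 109 and 59 in WT, a ratio of 1.83, so the higher sum did not rest on Nkx6-2 alone.

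Hox genes set position along the body axis, low-numbered genes near the head and high-numbered genes towards the tail. As a family they differed little between the groups. They summed to 207 and 302 counts in KO and 191 and 197 in WT, or 21.03 ± 6.71 CPM against 17.8 ± 2.59 CPM. The CPM ranges of the groups overlapped, and without Hoxb13 the ratio was 0.987. Without KO library 2 the log2 difference of the whole family turned from 0.24 to -0.12.

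Hoxb13 was the one Hox gene that passed the test. Hoxb13 (ENSMUSG00000049604, chr11:96194316-96197447, plus strand), the most posterior gene of its cluster and known in the tail end of the spinal cord, hindgut and prostate, held 48 and 49 counts in KO and 6 and 5 in WT. The libraries of each group nearly coincided, but counts of 6 and 5 are too few to fix the spread in WT. Hoxb13 reached the filter's limit only through its KO libraries. The level was 3.98 ± 0.286 CPM in KO and 0.499 ± 0.00238 CPM in WT, a log2 fold change of 2.97 (SE 0.54, edgeR adjusted p = 0.00976). Its neighbour Hoxb9, 74.0 kb away and a thoracic patterning gene, held 56 and 118 counts in KO and 59 and 90 in WT. Those groups overlapped, and the log2 fold change was 0.06 (SE 0.46, edgeR adjusted p = 0.948). Of the other genes in cluster B, Hoxb4 held 13 counts in all, Hoxb7 held 3, and the other 6 held none.

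In cluster A the sums were 54 and 82 counts in KO and 37 and 36 in WT, a ratio of 1.69 in CPM. Among the genes too low for the test, Hoxa5 held 5 and 10 counts in KO and 2 and 1 in WT. Hoxa3 held 6 and 5 against 1 and 0, Hoxa7 held 3 and 6 against 1 and 1, and Hoxa4 held 2 and 10 against 0 and 2. These 4 are middle and anterior genes of the cluster, and for the first 3 both KO libraries lay above both WT libraries in CPM. Hoxa13 held 12 counts in all, Hoxa2 and Hoxa11 held 5 each, Hoxa10 held 4 and Hoxa6 held 1.

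Cluster C ran the other way. Its sums were 14 and 34 counts in KO and 75 and 57 in WT, or 2.00 ± 1.27 CPM against 5.97 ± 0.417 CPM. Hoxc13, which acts in hair and nail, held 9 and 20 counts in KO and 49 and 29 in WT, with no overlap. Its log2 fold change of -1.53 (SE 0.57) had an edgeR adjusted p of 0.11 and did not pass. Hoxc4, the most anterior gene of the cluster, held 0 and 3 counts in KO and 8 and 19 in WT and was too low for the test. Hoxc10 held 16 counts in all, Hoxc6 and Hoxc8 held 8 each, Hoxc9 held 5, Hoxc5 held 3, Hoxc12 held 2 and Hoxc11 held 1. Hoxc5 and Hoxc10 share 166 exon bases in the annotation.

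Cluster D held the fewest counts over the 4 libraries, 31 and 13 in KO and 11 and 6 in WT. Most of those in KO library 1 lay on Hoxd4. Hoxd4 held 24 and 6 counts in KO and 1 and 1 in WT, so that KO library 1 stood well above KO library 2. Hoxd4 shares 388 exon bases with Hoxd3 on the same strand, and Hoxd3 held 1 count. Hoxd13, a limb and genital gene at the posterior end, held 1 and 2 counts in KO and 10 and 2 in WT. Hoxd8 held 7 counts in all, Hoxd9 held 3, Hoxd1 held 2 and Hoxd11 held 1.

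**Figure D3:**
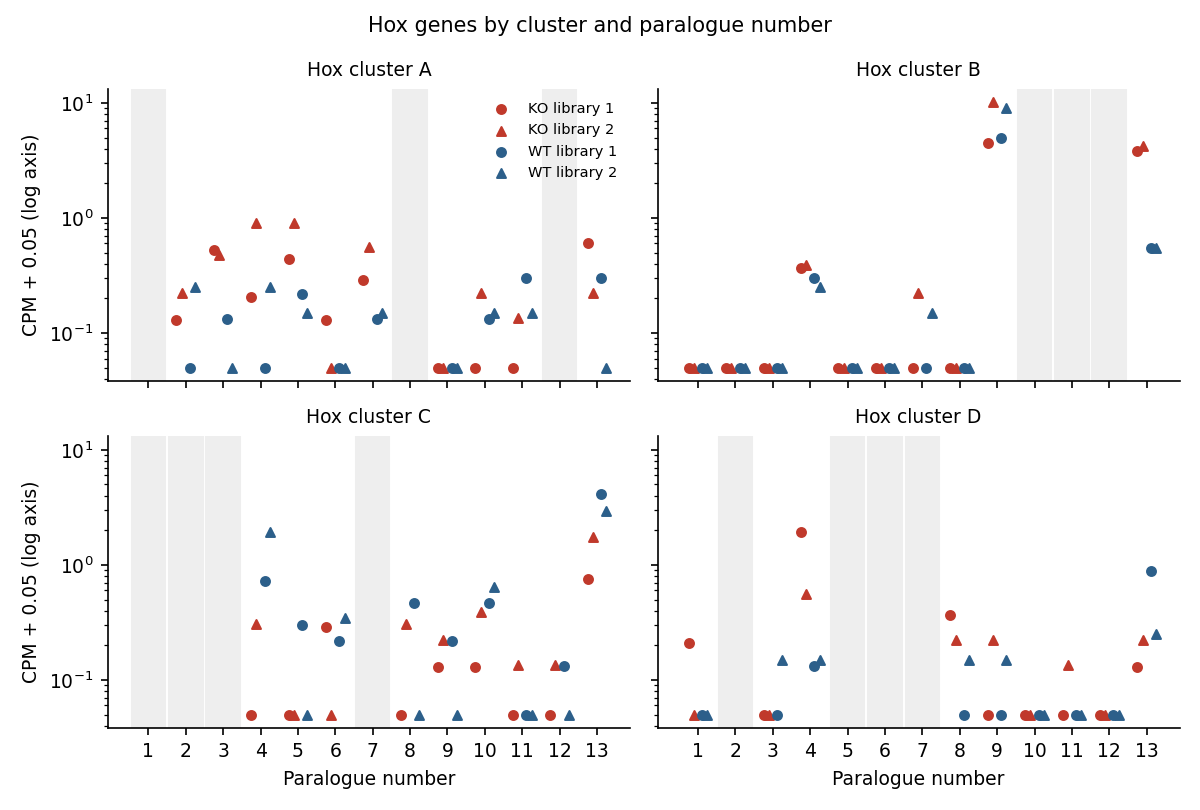
Level of Hox genes in each of the 4 libraries, as CPM + 0.05 on a log axis, by cluster (panels) and paralogue number (horizontal axis), with grey bands where no gene is shown and points on the floor of the axis for 0 counts. Hoxb9, Hoxb13 and Hoxc13 reach the highest levels, and Hoxb13 shows both KO points above both WT points.

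Pax genes act in kidney, thyroid, eye, muscle and spine. Pax8, a thyroid and kidney regulator, was the one Pax gene with enough counts for the test, with 65 and 80 counts in KO and 45 and 50 in WT. Its groups lay close to each other but did not overlap, with a log2 fold change of 0.45 (SE 0.38, edgeR adjusted p = 0.485). Pax7, of the muscle stem cell and neural crest, held 14 counts in all, and Pax5, of the B cell, held 9. Pax2 and Pax3 held 7 each, and Pax1 and Pax9 held 4 each. The family summed to 6.75 ± 1.31 CPM in KO and 5.51 ± 0.362 CPM in WT. Pax6, outside these members, held 203 and 193 counts in KO and 5 and 5 in WT, a log2 fold change of 5.12 (SE 0.40, edgeR adjusted p = 0.000199).

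Lhx genes encode LIM-homeodomain factors that fix neuron types and organ buds. Lhx2, of the eye, forebrain and hair follicle, held 14 and 10 counts in KO and 4 and 6 in WT, a log2 fold change of 1.08 (SE 0.68, edgeR adjusted p = 0.339). Lhx6, of cortical interneurons, held 16 and 23 counts in KO and 21 and 19 in WT, with overlap (log2 fold change -0.18, SE 0.53, edgeR adjusted p = 0.865). Neither passed the test. Lhx3, of the pituitary and motor neurons, held 20 counts in all, Lhx4 held 6, Lhx5 and Lhx9 held 5 each and Lhx1 held 3. The family summed to 38 and 45 counts in KO and 32 and 37 in WT, a ratio of 1.08 in CPM.

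Irx genes encode homeodomain factors of the TALE class and pattern heart, limb and nervous system. Irx2 held 30 and 23 counts in KO and 10 and 11 in WT. The groups did not overlap, and the log2 fold change of 1.16 (SE 0.54) had an edgeR adjusted p of 0.194. Irx3 held 11 and 7 counts in KO and 9 and 4 in WT, Irx4 and Irx5 held 6 counts each in all and Irx1 held 5. The family summed to 3.30 ± 0.448 CPM in KO and 1.83 ± 0.479 CPM in WT.

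Dlx genes act in the branchial arches, forebrain and skin, and their sum was lower in KO. It was 9 and 6 counts in KO and 26 and 18 in WT, or 0.610 ± 0.139 CPM against 1.98 ± 0.268 CPM. Dlx3, of the epidermis and placenta, held 3 and 3 counts in KO and 11 and 13 in WT. Its log2 fold change was -2.11 (SE 0.72) with an edgeR adjusted p of 0.0851, so the groups did not overlap but the change did not pass the threshold. Dlx4 held 14 counts in all, Dlx2 held 13 and Dlx1 held 2.

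**Figure D4:**
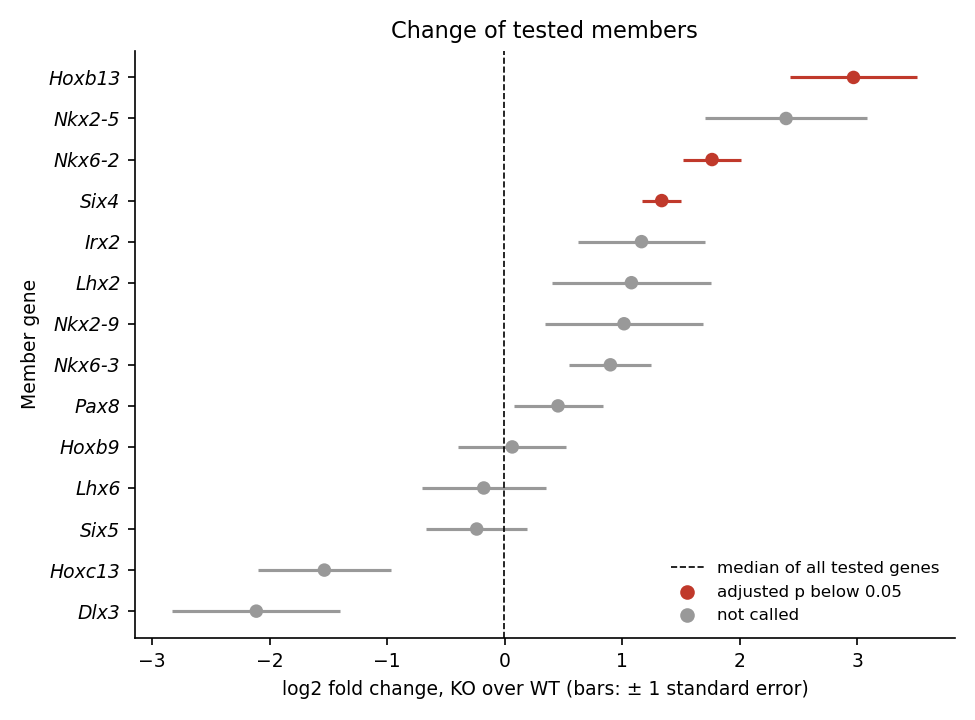
Log2 fold change of KO over WT for tested members with bars of 1 standard error, ordered by size, and a dashed line at the median of all tested genes. Hoxb13, Nkx6-2 and Six4 are marked as passing an edgeR adjusted p of 0.05, and Hoxc13 and Dlx3 lie lowest, at -1.53 and -2.11.

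Matches to the shared 3p seed were counted in the longest annotated 3′ UTR of each gene, on the transcript strand, on GRCm38. The letters looked for were AGCACTTA (8 bases), AGCACTT or GCACTTA (7 bases) and GCACTT (6 bases), each shorter one lying inside the longer. A match is only a description of letters. Of 86 members with a 3′ UTR, 8 (9.30%) held a 7-base match, beside 17.7% of 20990 genes, and 19 (22.1%) held a 6-base match, beside 28.5%. Among the 16 tested members 4 (25%) held a 7-base match, beside 20.9% of 12481 tested genes. Of the members that rose, Six4 and Hoxb13 held an 8-base match, while Nkx6-2 held none of these letters in that UTR. Lhx6, which did not pass the test, held a 7-base match. The 8-base matches of the called members and the second 7-base match in Six4 are shown with the match in capitals.
Six4, chr12:73106934-73106961, minus strand: ctataatcctAGCACTTAggagactgaa
Six4, chr12:73104201-73104228, minus strand: agttaccccaAGCACTTcggacggaagc
Hoxb13, chr11:96196521-96196548, plus strand: agctctgttgAGCACTTAgaaatcgctt
The remaining 8-base match among the members was in Pax5, which held 2 and 1 counts in KO and 5 and 1 in WT.

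CpG content of the promoters was mixed among the members. RefSeq windows from 250 bases before to 50 bases after the start, on GRCm38.p6, were matched for 56 of the 87 members. Their median GC content was 60.2% and their median ratio of observed to expected CG was 0.668, beside 57.0% and 0.598 over 16514 protein-coding genes. Windows with a GC content of at least 50% and a ratio of at least 0.6 made up 53.6% of the members' and 47.5% of all. Among members with a count but no test that share was 60.5% of 38 windows, among the 9 tested members 4 windows met both limits (44.4%), and among the 9 members with no count 3 did (33.3%). Nkx6-2 and Six4, the 2 called members with a window, are shown with each CG in capitals, which reads the same on both strands. Nkx6-2 held 32 CG and Six4 held 16.
Nkx6-2, chr7:139582748-139583047, minus strand: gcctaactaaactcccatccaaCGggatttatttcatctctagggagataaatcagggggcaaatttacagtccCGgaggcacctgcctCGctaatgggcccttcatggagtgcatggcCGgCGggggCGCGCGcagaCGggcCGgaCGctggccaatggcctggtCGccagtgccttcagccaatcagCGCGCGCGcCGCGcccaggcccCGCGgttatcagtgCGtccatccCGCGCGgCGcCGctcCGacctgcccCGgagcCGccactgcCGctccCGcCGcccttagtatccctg
Six4, chr12:73113196-73113495, minus strand: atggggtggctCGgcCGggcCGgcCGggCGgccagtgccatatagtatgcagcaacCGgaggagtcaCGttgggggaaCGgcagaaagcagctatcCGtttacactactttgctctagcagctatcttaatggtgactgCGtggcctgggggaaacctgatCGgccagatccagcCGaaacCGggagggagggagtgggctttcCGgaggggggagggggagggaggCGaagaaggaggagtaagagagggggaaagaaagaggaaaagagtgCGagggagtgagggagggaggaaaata

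Partners of the members' proteins were followed in the same fit. Beside the list counts here and below stand 7.42% of all tested genes that rose and 4.96% that fell. TALE-class factors, which bind DNA together with HOX proteins, were tested for 9 of 9 genes, and 2 rose and 0 fell with a median log2 fold change of 0.31. Without KO library 2, 1 rose. Meis2 held 248 and 353 counts in KO and 37 and 29 in WT (log2 fold change 3.05, SE 0.32, edgeR adjusted p = 0.000829). Of the EYA and DACH cofactors of PAX and SIX-class proteins, 3 of 6 were tested, and 0 rose and 0 fell. Eya1, a phosphatase and coactivator of SIX-class proteins, held 85 and 108 counts in KO and 33 and 38 in WT, a log2 fold change of 1.28 (SE 0.38) that missed the threshold at an edgeR adjusted p of 0.0576. Of the LDB and LMO partners of LIM-homeodomain proteins, 3 of 6 were tested, 0 rose and 0 fell.

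Polycomb subunits were expressed in both groups, with PRC2 subunits summing to 3389 and 3438 CPM in KO and 3783 and 3479 CPM in WT. Of 12 subunits of PRC2, the complex that methylates histone H3, 0 rose and 1 fell, with a median log2 fold change of -0.09. That gene was Epop, an accessory subunit, with 1147 and 1079 counts in KO and 2259 and 1405 in WT (log2 fold change -0.85, SE 0.18, edgeR adjusted p = 0.0168), and it lost the call without KO library 1 (adjusted p = 0.0882) or KO library 2 (adjusted p = 0.0762). Ezh2, also of PRC2, held 2875 and 2832 counts in KO and 3823 and 3293 in WT. Its log2 fold change of -0.47 (SE 0.14) missed the threshold at an edgeR adjusted p of 0.0561. The other PRC2 subunits that were not called changed in both directions. Of 21 subunits of PRC1, the complex that ubiquitinates histone H2A, 3 rose and 3 fell. Bcor, a corepressor of a variant PRC1, held 529 and 329 counts in KO and 128 and 112 in WT (log2 fold change 1.68, SE 0.26, edgeR adjusted p = 0.00434). Phc2, a Polyhomeotic subunit, held 664 and 597 against 306 and 248 (log2 fold change 1.04, SE 0.18, edgeR adjusted p = 0.00876). Pcgf5, a RING-finger subunit, held 101 and 93 against 182 and 174 (log2 fold change -1.03, SE 0.27, edgeR adjusted p = 0.0353), and its call was lost without KO library 1 (adjusted p = 0.173) or KO library 2 (adjusted p = 0.172). Cbx6, a chromodomain subunit, rose by 0.55 on the log2 scale (SE 0.15, edgeR adjusted p = 0.0414), a call also lost without either KO library. Pcgf2 and Cbx7 fell by 0.55 and 0.59 on the log2 scale (edgeR adjusted p = 0.0486 and 0.0487), and both calls were likewise lost without either KO library and, for Cbx7, without WT library 1. By DESeq2's test 2 PRC1 subunits rose and 0 fell. Of 12 genes of the opposing Trithorax type or for H3K27 demethylases, 0 rose and 0 fell by edgeR with its low-count filter or by DESeq2. Their median log2 fold change was 0.12. Without that filter edgeR called 2 higher and 0 lower, and calls in both directions also appeared without WT library 2.

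**Figure D5:**
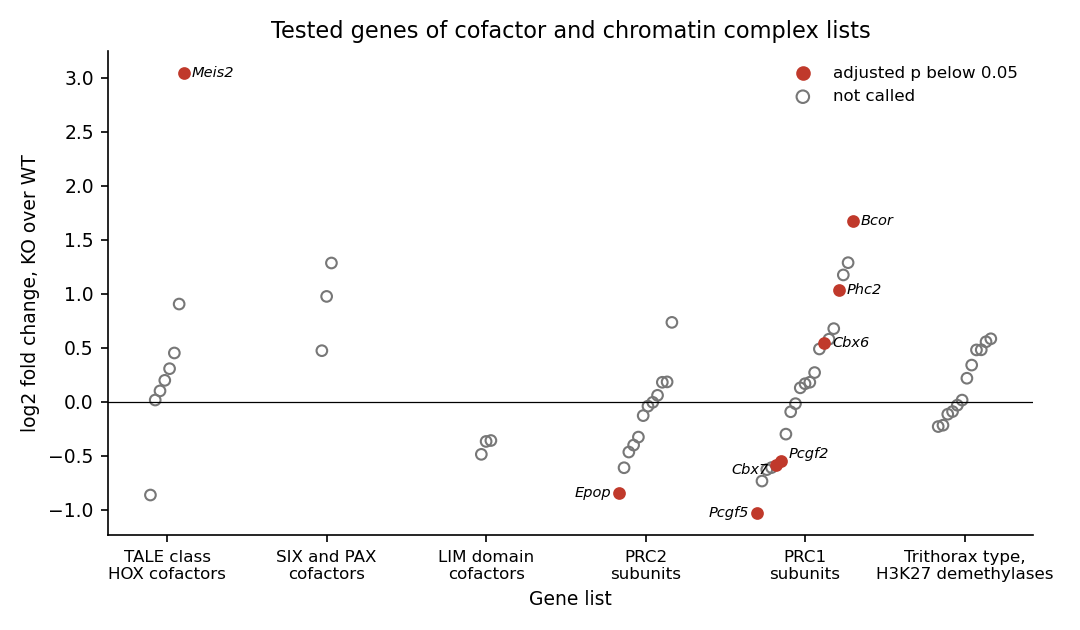
Log2 fold change of KO over WT for tested genes of 6 lists of cofactors and chromatin complexes, filled where the edgeR adjusted p is below 0.05 and open otherwise. Meis2 lies highest at 3.05, and Epop is the only filled PRC2 point. No point of the Trithorax type and H3K27 demethylase list is filled, and PRC1 subunits are filled on both sides of 0.

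Signals and caudal factors that switch on Hox genes were mixed. All 16 such genes had a count, 9 were tested, and 1 rose and 1 fell (3 and 0 without KO library 2). Gdf11, a secreted factor that shifts Hox patterns towards the tail, held 80 and 93 counts in KO and 12 and 17 in WT (log2 fold change 2.41, SE 0.45, edgeR adjusted p = 0.0109). Cdx1, a caudal homeobox gene, held 61 and 49 counts in KO and 104 and 155 in WT (log2 fold change -1.42, SE 0.37, edgeR adjusted p = 0.0355), a call lost without either KO library or without WT library 2.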

How the data were processed

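The table holds counts per gene, which the authors deposited without normalization, from 2 KO and 2 WT libraries. Reads were trimmed with Trim Galore and the build was GRCm38, per the submitters' processing notes. For the aligner, the counter with its strand setting, and the gene annotation, the entry is: not given in the sources used here. Of 55421 identifiers, 55240 were named through GENCODE release M21.

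Genes were tested with edgeR 4.0.16 in R 4.3.3 (filterByExpr, TMM scaling, quasi-likelihood F test, two-sided, Benjamini-Hochberg over all 14427 tested genes, threshold 0.05). CPM values use TMM-scaled totals, and a standard error is the log2 fold change over the square root of F. The members and lists were chosen with earlier results of these data known. Tested members, untested members by their counts, and up to 4 called genes with the smallest p per list were named. Mnat1, Inpp5a and 4930447C04Rik, which neighbour or overlap members, and Eya1, Ezh2, Klf4, Utf1, Pcgf2, Cbx7 and the genes at 0 are outside that rule. P-values measure only the spread between these libraries. On simulated counts for this comparison (14402 genes tested) the fit recovered 0% of 1.5-fold, 28.4% of 2-fold and 97% of 4-fold changes. These shares were not split by expression level, so they give no recovery rate for the members, most of which were low. Among the low tested members, Dlx3 and Nkx2-5 had log2 fold changes of -2.11 and 2.39 and were not called. Some genes that this rule names are not reported here. Proteins were not analysed here.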

Additional observations from a re-analysis of the deposited data

How the results depend on the processing

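Six4, Nkx6-2 and Hoxb13 kept their direction and their call under all 9 alternatives. With 1 library left out at a time their log2 fold changes ran from 1.25 to 1.43, 1.54 to 1.97 and 2.90 to 3.04. Where only 1 library of a group is left, it is assumed to vary like the other group.

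Without a low-count filter 7 members were called higher, the added ones being Hoxd4, Nkx2-5 and Six6, and 2 lower, Hoxc13 and Hoxc4. The number of genes called lower was then 1193, and the median over 69 members was 0.46. By DESeq2 the median was 0.55. With the replicate block, 638 genes were called higher and 370 lower, and these 3 members kept their call with edgeR adjusted p-values of 0.0117, 0.0129 and 0.0373. The labels give no meaning to the replicate numbers, and the KO and WT differences between numbers correlated at -0.06.

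With 1 library left out, genes called higher numbered from 556 to 1477 and lower from 285 to 1011, members called higher 4 to 5 and lower 0 to 1, the added ones being Hoxd4 without KO library 2 and Hoxc4 without WT library 1. The median ran from 0.77 to 1.01 and the log2 ratio of the summed CPM from 1.09 to 1.16, and it was 0.92 without Six4. Members detected in WT library 1 fell from 54 to 49 after thinning. Signs turned between these values, each range with 1 library left out: Hoxb9 -0.64 (without KO library 2; -0.32 without WT library 1) to 0.55, Lhx6 -0.52 to 0.11 (without KO library 1), the Hox sum -0.12 (without KO library 2) to 0.54, and the Lhx sum -0.11 (without WT library 1; -0.08 without KO library 2) to 0.35. The cause was not tested. At this depth 30 members held at most 3 counts in all, where no change could be detected.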

Other observations

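Developmental regulators of other families changed in both directions. Over all tested genes 7.42% rose and 4.96% fell. Of 74 further homeobox genes in the table, 25 were tested, and 4 rose and 1 fell, with a median log2 fold change of 0.24, while 2 rose and 1 fell without KO library 2. En1, a midbrain and limb gene, held 69 and 53 counts in KO and 2 and 4 in WT (log2 fold change 4.13, SE 0.61, edgeR adjusted p = 0.00364). Onecut2, a liver and neuronal factor, held 90 and 128 against 33 and 16 (log2 fold change 2.03, SE 0.43, edgeR adjusted p = 0.0171), a call lost without KO library 2. Satb1, a chromatin organiser, held 84 and 177 against 381 and 480 and fell by 1.87 on the log2 scale (SE 0.37, edgeR adjusted p = 0.0131).

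Of 51 developmental regulators without a homeobox, 15 were tested, and 4 rose and 3 fell, with a median of -0.22, and 3 of the 4 that rose lost the call when 1 of the KO libraries was left out. Sox21, a neural progenitor factor, held 717 and 461 counts in KO and 121 and 61 in WT (log2 fold change 2.56, SE 0.30, edgeR adjusted p = 0.00123). Gata6 and Sox17, both endoderm regulators, had log2 fold changes of -3.33 and -2.69, and the Sox17 call was lost without KO library 2 (edgeR adjusted p = 0.0504). Tbx3, a regulator of limb and heart that is also expressed in stem cells, was the remaining gene that fell (edgeR adjusted p = 0.00489).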
